A study of Mus musculus with 9 samples.

Results

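The mouse mitochondrial genome encodes 13 proteins of the respiratory chain, and 10 of them are described here: ND1, ND2, ND4, ND5, ND6, CYTB, COX1, COX2, COX3 and ATP6. They were chosen by symbol, and all 10 were found among the 22587 genes of the tables, of which 36 are encoded in the mitochondrial genome. RNA was sequenced from whole eyeballs of wild-type (WT) female mice of the albino strain BALB/C, in 3 groups of 3 libraries. CON mice received no injection and drank water, DES mice were injected intraperitoneally with scopolamine and drank water, and T.chuii mice were injected likewise and given Tetraselmis chuii, a green microalga, at 300 mg/kg. Scopolamine blocks muscarinic acetylcholine receptors, and its injection is a common way to provoke dry eye. All groups shared strain, sex and genotype, were treated for 2 weeks from 6 weeks of age, and are labelled postnatal day 56. The labels name no sham injection for CON, so the drug and the injection cannot be told apart. The study began with 15 mice, and the labels do not say which or how many gave each library, so p-values measure the spread between libraries, which may be technical.

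Oxidative phosphorylation passes electrons through complexes I to IV of the inner mitochondrial membrane and uses the proton gradient this makes to drive ATP synthase. The mitochondrial genome supplies part of complexes I, III and IV and of the ATP synthase. The nucleus supplies all other subunits and the whole of complex II. Both strands of the small circular genome are transcribed as long precursors that are cut at the tRNAs, so genes on the same strand share a precursor. In the eye, photoreceptor inner segments, extraocular muscle and corneal epithelium all hold mitochondria, photoreceptors and muscle in dense arrays.

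The genes lie end to end on the mitochondrial chromosome, and several share bases, which matters for counting. On GRCm38.p6, the assembly of mm10, the complex I genes are at chrM:2751-3707 (ND1), chrM:3914-4951 (ND2), chrM:10167-11544 (ND4), chrM:11742-13565 (ND5) and chrM:13552-14070 (ND6). CYTB is at chrM:14145-15288. The complex IV genes are at chrM:5328-6872 (COX1), chrM:7013-7696 (COX2) and chrM:8607-9390 (COX3), and ATP6 is at chrM:7927-8607. Each is 1 exon without introns, and ND6 is the only one on the minus strand. The following stretches of the RefSeq and GENCODE reference, plus strand, are shown because reads from their capital letters belong to 2 genes at once. The capitals mark 43 shared bases of ATP8 and ATP6 (chrM:7907-7989), 7 of ND4L and ND4 (chrM:10147-10193), and 14 of ND5 and ND6 (chrM:13532-13585), which run in opposite directions.
ATP8 and ATP6: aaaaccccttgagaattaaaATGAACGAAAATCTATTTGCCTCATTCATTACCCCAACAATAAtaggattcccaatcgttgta
ND4L and ND4: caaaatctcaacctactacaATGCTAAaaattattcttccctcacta
ND5 and ND6: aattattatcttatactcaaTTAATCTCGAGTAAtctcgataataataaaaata

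In 3 members the gene ends on a bare T, and the poly(A) tail completes the stop codon TAA. The last 30 bases of these genes are shown for that reason, plus strand, with the incomplete stop in capitals: ND4 at chrM:11515-11544, CYTB at chrM:15259-15288 and COX3 at chrM:9361-9390. The library kit captures RNA by its poly(A) tail, so the values below need not follow the total amount of each RNA. The strain sequenced here may differ from the reference at single bases.
ND4: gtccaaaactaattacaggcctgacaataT
CYTB: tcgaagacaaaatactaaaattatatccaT
COX3: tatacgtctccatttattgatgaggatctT

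Copies of mitochondrial sequence in the nuclear genome can take or give reads. In the GENCODE annotation, pseudogenes on chromosome 1 matched COX2 (681 bases), COX3 (783 bases), ATP6 (678 bases) and 876 bases of ND4 at 100% identity. COX1 had a copy on chromosome 2 at 97.6% identity over 1545 bases, and ND6 (93.6% over 519 bases), CYTB (92.9% over 1142 bases) and ND5 (92.3% over 1058 bases) had theirs on chromosome 4. None of these pseudogenes is among the genes analysed here. The treatment of strand and of multiply mapped reads is not stated in the sources at hand, so the division of reads between a gene, its copies and its overlapping neighbours is uncertain.

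Library totals lay between 39.1 and 64.6 M reads, and a member had between 8439 reads (ND6 in CON 2) and 287729 reads (COX3 in T.chuii 1). Libraries differed in tissue makeup. Rod markers held between 1.15% and 5.66% of reads and corneal epithelium markers between 1.42% and 7.75%. Both were thus present in every library. Their ratio, cornea to rod, was high in CON 2 (3.82), DES 1 (2.49) and T.chuii 1 (3.84), and between 0.337 and 0.843 in the other 6 libraries. The median changes of the 10 genes are therefore also given without these 3 libraries. In bulk tissue, fewer cells of a type and less RNA per cell cannot be told apart.

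The 10 genes together took up 2.25%, 0.769% and 2.18% of reads in CON, then 2.24%, 2.02% and 3.14% in DES, then 3.62%, 2.82% and 2.91% in T.chuii. Group means were 1.73% ± 0.836 for CON, 2.47% ± 0.593 for DES and 3.12% ± 0.438 for T.chuii (SD, n = 3). The lowest T.chuii library was above the highest CON library, while DES overlapped both. CON 2 stood far below every other library, and T.chuii 1 was the highest, 4.70-fold above it. Counting error was negligible beside this spread, as Wilson 95% intervals reached no more than 0.00543 percentage points each way, for counting error only.

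**Figure D1:**
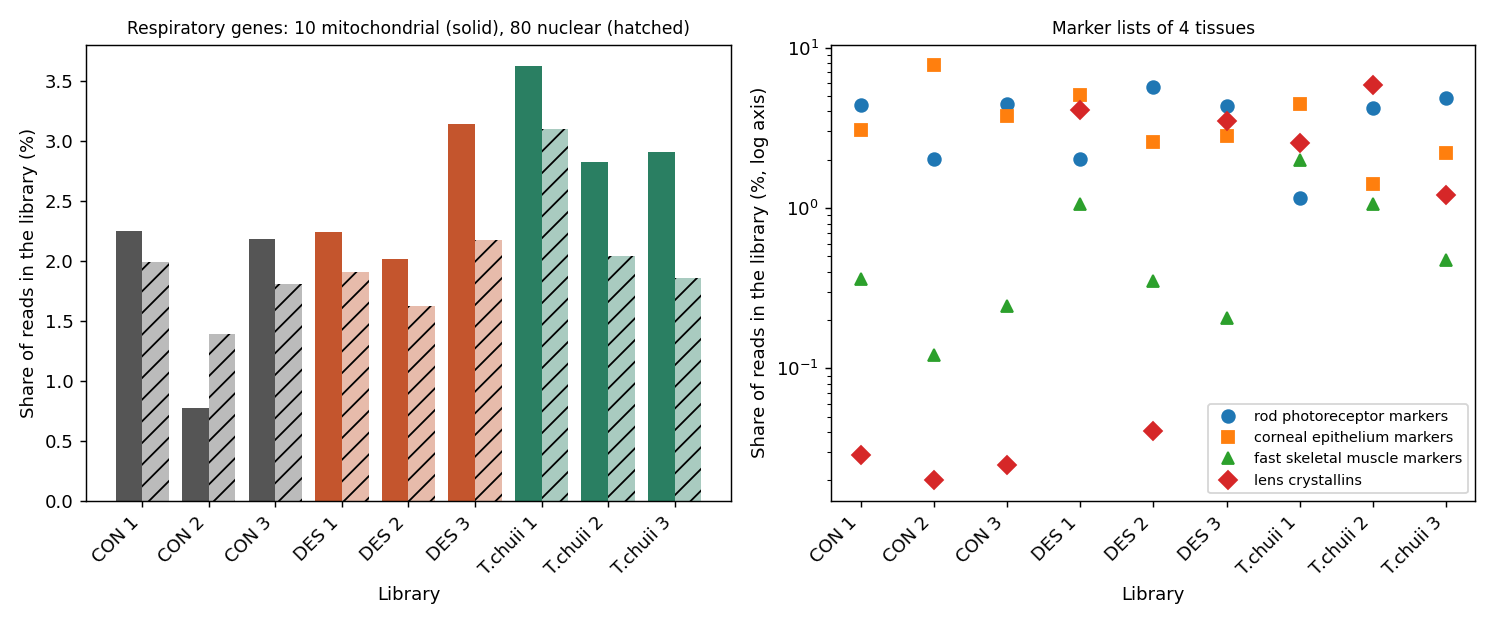
Left, percent of each library's reads held by the 10 mitochondrial genes (solid bars) and by 80 nuclear-encoded respiratory subunits (hatched bars), with CON grey, DES orange and T.chuii green. Right, percent held by 4 tissue marker lists on a log axis. CON 2 is lowest (0.769%) and T.chuii 1 highest (3.62%) for the mitochondrial genes, and both are rich in corneal markers (7.75% and 4.43%).

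The share of the mitochondrial genes can be set beside the tissue markers. CON 2, the lowest library, had the most corneal epithelium reads (7.75%) and the fewest fast muscle reads (0.121%). Its summed share of lens crystallins was also the lowest (0.0201%). The crystallin genes Cryaa (12.7 CPM) and Cryba4 (6.35 CPM) were nevertheless higher in CON 2 than in CON 1 and CON 3. T.chuii 1, the highest, was also rich in cornea (4.43%), had the fewest rod reads (1.15%) and the most fast muscle reads (1.99%). DES 3, the second highest, had 4.35% rod, 2.79% cornea and 0.205% fast muscle reads. The lowest and the highest library thus both belonged to the cornea-rich ones. Fast muscle markers (19 of 19 measured) ranged from 0.121% to 0.359% in CON, then 0.205% to 1.06% in DES, then 0.477% to 1.99% in T.chuii, and like the mitochondrial genes they did not overlap between CON and T.chuii. Lens crystallins (6 of 16 listed were measured) held 0.0201% to 0.0287% in CON, then 0.0408% to 4.07% in DES, then 1.21% to 5.86% in T.chuii, and the defining alpha crystallin gene Cryaa was near 0 in CON, with 0.261, 12.7 and 0.268 CPM. Lens RNA, which a whole eyeball should hold, was thus nearly missing from the CON libraries and from DES 2 (0.0408%). Adipocyte markers (3 of 7 measured) held at most 0.00318% in CON, 0.00399% in DES, and 0.00886% to 0.142% in T.chuii. The smallest count of any gene was 1 read in every library. Genes without reads in some library may therefore be absent from the data, and the lens and adipocyte shares may be too low. Why the other listed genes are absent is not stated. Keratocyte and scleral matrix markers (12 of 12 measured) held 0.488%, 0.610% and 0.501% in CON, then 0.340%, 0.263% and 0.417% in DES, then 0.521%, 0.253% and 0.319% in T.chuii. In DES vs CON 11 of these 12 markers had lower means (median log2 change -0.94, and -0.83 without the 3 cornea-rich libraries). Of the 12, 6 were under an unadjusted p of 0.05 and 0 passed the adjusted threshold of limma-voom. Of all 21287 genes tested, 235 were under that unadjusted p in either direction, 127 of them higher in DES. Erythroid markers (5 of 7 measured) held 0.259% in T.chuii 1 and at most 0.0939% elsewhere. The part of these tissue differences in the results below was not tested.

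Per length, in the deposited FPKM values (fragments scaled to transcript length and library size), ATP6 had the highest level of the 10 with a mean of 5273 FPKM over the 9 libraries, and ND5 the lowest mean with 645. In between came COX3 at 4709, CYTB at 3582, ND1 at 2708, COX1 at 2475, COX2 at 1806, ND4 at 1078, ND2 at 844 and ND6 at 750.2 FPKM. The order ATP6, COX3, CYTB held in all 9 libraries, as did CYTB above ND1, COX2 above ND4 and ND4 above ND2. Other neighbours were not separated: ND1 exceeded COX1 in 6 of 9 libraries and ND2 exceeded ND6 in 6, ND6 exceeded ND5 in 5, and COX1 exceeded COX2 in 8. The top of the order is a run of 2 adjacent genes, ATP6 and COX3, which share 1 base and are parts of different complexes.

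**Figure D2:**
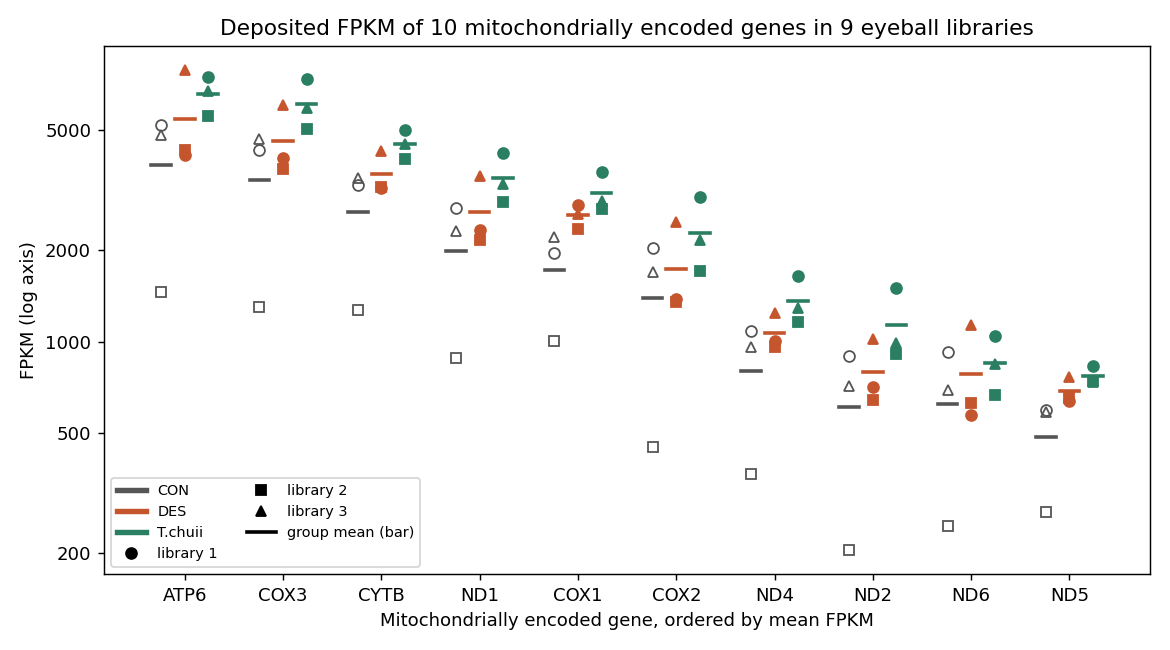
Deposited FPKM of each gene on a log axis, with 1 point per library (marker shape gives the library number, colour the group) and a bar at the group mean. CON 2 is the lowest point for all 10 genes, and the genes span from a mean of 5273 FPKM (ATP6) to 645 FPKM (ND5).

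Complex I takes electrons from NADH, and the ND genes encode its membrane-bound core. ND1, at the joint of its membrane and matrix arms, stood at 2535, 963 and 2161 CPM (reads scaled to library size, comparable between libraries but not between genes of unequal length) in CON, then 2494, 1905 and 4002 in DES, then 4649.7, 3059 and 3133 in T.chuii. ND2, an antiporter-like proton channel subunit, had 896, 242 and 725 CPM in CON, then 822, 613 and 1257 in DES, then 1818, 1045 and 1012 in T.chuii. For both, CON 2 was the low library and T.chuii 1 the high one, every T.chuii library was above every CON library, and DES overlapped both groups. ND2 had the widest range of the 10, with a highest CPM 7.52 times the lowest. ND4, another antiporter-like subunit, had 1437, 572 and 1288 CPM in CON, then 1543, 1213 and 2032 in DES, then 2631, 1768 and 1746 in T.chuii, in the same pattern as ND1. ND5, at the far tip of the membrane arm, had 1046, 566 and 1044 CPM in CON, then 1291, 1096.5 and 1652 in DES, then 1756, 1490.3 and 1317 in T.chuii. ND5 had the narrowest range, 3.1-fold in CPM, and was the only member whose DES libraries all lay above its CON libraries.

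ND6, the minus-strand gene for a small membrane subunit of complex I, behaved less evenly. Its CPM were 461, 145 and 352 in CON, then 332, 299 and 699.6 in DES, then 627, 382 and 431 in T.chuii. CON 1 was above 2 of the 3 DES libraries and 2 of the 3 T.chuii libraries, so all groups overlapped. DES 3 and not T.chuii 1 was the highest library.

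CYTB, cytochrome b, is the only mitochondrially encoded subunit of complex III, which hands electrons to cytochrome c. Its CPM were 3623, 1657 and 3871 in CON, then 4106, 3417 and 5767 in DES, then 6646, 5052 and 5070 in T.chuii. The T.chuii libraries were all above CON, and CON and DES overlapped through DES 2.

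Complex IV, cytochrome c oxidase, reduces oxygen, and COX1 and COX2 carry its metal centres. COX1 had 2915, 1767 and 3340 CPM in CON, then 4875, 3336 and 4839.7 in DES, then 6529, 4666 and 4431 in T.chuii. DES 2 and CON 3 were nearly equal, and they were the only overlap between these groups. T.chuii and DES overlapped since DES 1 and DES 3 exceeded 2 of the 3 T.chuii libraries. COX2, which accepts electrons from cytochrome c, had 1338, 348 and 1137 CPM in CON, then 1053, 848 and 2005 in DES, then 2388, 1291 and 1457 in T.chuii. Here CON 1 reached above T.chuii 2, so all groups overlapped. COX3, a structural core subunit, had 3230.2, 1162 and 3579 CPM in CON, then 3537, 2675 and 5618 in DES, then 6702, 4369 and 4572 in T.chuii, with no overlap between CON and T.chuii.

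ATP6 encodes subunit a of ATP synthase, which forms the proton path beside the rotating ring. Its CPM were 3393, 1132 and 3193 in CON, then 3144.5, 2679 and 6357 in DES, then 5915, 4173 and 4497 in T.chuii. DES 3 was the highest library, and the T.chuii libraries were all above CON.

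The effect of scopolamine injection was addressed by comparing DES with CON. All 10 genes had higher means in DES, by 0.53 to 0.74 on the log2 scale and a median of 0.63, or 1.55-fold, where 47.6% of all genes had a higher mean and the median of all genes was -0.02. None passed the test: limma-voom called 0 of the 10 and 0% of 21287 genes at a Benjamini-Hochberg adjusted p of 0.05, with 235 genes at an unadjusted p under 0.05. Limma-trend on FPKM called 0 and had 310 genes at an unadjusted p that low. COX1 was the only member under an unadjusted p of 0.05, a level that 0.597% of genes reached in this direction, with 4350.2 ± 879 CPM in DES and 2674 ± 814 in CON (SD, n = 3, log2 change 0.74 ± 0.32 SE, limma-voom unadjusted p = 0.0414, adjusted p = 1). ND5 was the only member whose groups did not overlap, where 2% of all genes did so in this direction, at 1347 ± 282 against 885 ± 276 CPM (0.64 ± 0.30). The smallest difference was that of ND6, 444 ± 222 against 319 ± 161 CPM (0.53 ± 0.45, 95% interval -0.48 to 1.53). Since 9 of the 10 genes lie on the same strand and share its precursor, their common direction does not count as separate observations. The median was 0.21 without CON 2, 0.36 without DES 3 and 0.22 without CON 2, DES 1 and T.chuii 1 together, and COX2 was level without CON 2 (-0.0032). The number of members without overlap was 2 without CON 3 and 4 without DES 2. With a library left out, groups overlap less readily, and the share of all genes is not given there.

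T.chuii against DES sets mice fed the alga beside injected mice on water. Again all 10 means were higher in T.chuii, against 45% of all genes, by 0.18 (ND6) to 0.52 (ND2) and a median of 0.35, or 1.28-fold, where the median of all genes was -0.03. All groups overlapped for all 10 genes, where 2.29% of genes did not in this direction, and every 95% interval included 0. Limma-voom called 0 members and 0% of all genes at an adjusted p of 0.05, with 233 genes at an unadjusted p under 0.05, none of them a member (0.747% of genes in this direction). Limma-trend on FPKM called 0 and had 277 genes at an unadjusted p that low. A limma-voom fit of these 6 libraries with same-numbered ones as pairs (a replicate block, chosen after seeing the data) called 2 of 20931 genes, neither of them a member, with 1267 at an unadjusted p under 0.05. They were Mobp, a myelin protein gene (log2 change 6.76 ± 0.30 SE, limma-voom adjusted p = 0.000421), and Nmrk2, a nicotinamide riboside kinase gene of muscle (1.99 ± 0.18, adjusted p = 0.0391). The pairs were picked from these same libraries, so these p-values do not count as support for either gene. The smallest adjusted p of a member in that fit was 0.95, and the members' median was 0.36. ND2 averaged 1292 ± 456 CPM in T.chuii and 897 ± 329 in DES (SD, n = 3, log2 change 0.52 ± 0.50 SE, limma-voom adjusted p = 1), and COX1 5208 ± 1149.5 and 4350.2 ± 879 (0.26 ± 0.32). ND6 averaged 480.3 ± 130 and 444 ± 222 CPM. The median was 0.19 without T.chuii 1, 0.20 without DES 2 and 0.15 without the 3 cornea-rich libraries, and was 0.65 without DES 3. Without DES 3, 9 of the 10 genes no longer overlapped, COX1 being the exception. Smaller groups overlap less readily, and the share of all genes without overlap is not given for this setting. ND6 turned below 0 without T.chuii 1 (-0.02), without DES 2 (-0.02) and without the 3 cornea-rich libraries (-0.19).

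The widest gap was between T.chuii and CON, which differ in injection and feed together. All 10 means were higher in T.chuii, against 44.6% of all genes, by 0.70 (ND6) to 1.20 (ND2) with a median of 1.00, or 2.01-fold, where the median of all genes was -0.04. For 8 genes the groups did not overlap, against 5.45% of all genes in this direction, and the exceptions were ND6 and COX2. The same 8 were under an unadjusted p of 0.05, against 3.15% of genes in this direction. Limma-voom called 0 of the 10 and 0% of all genes at an adjusted p of 0.05, with 911 genes at an unadjusted p under 0.05. Limma-trend on FPKM called 0 and had 1078 genes at an unadjusted p that low. COX1 had the smallest p, with 5208 ± 1149.5 CPM against 2674 ± 814 (SD, n = 3, log2 change 0.99 ± 0.32 SE, limma-voom unadjusted p = 0.0105, adjusted p = 0.986). ND2 had 1292 ± 456 against 621 ± 339 CPM (1.20 ± 0.49, 95% interval 0.11 to 2.28), and CYTB 5589 ± 915 against 3050.2 ± 1213 (0.95 ± 0.37, 0.14 to 1.77). ATP6 had 4862 ± 926 against 2573 ± 1252 CPM (1.05 ± 0.47, 0.02 to 2.09) and COX2 1712 ± 591 against 941 ± 523 (1.02 ± 0.52, -0.13 to 2.17). The median was 0.57 without CON 2 and 0.38 without the 3 cornea-rich libraries, where ND6 was level (-0.0072). The 3 comparisons share libraries, so their values are not independent of one another.

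**Figure D3:**
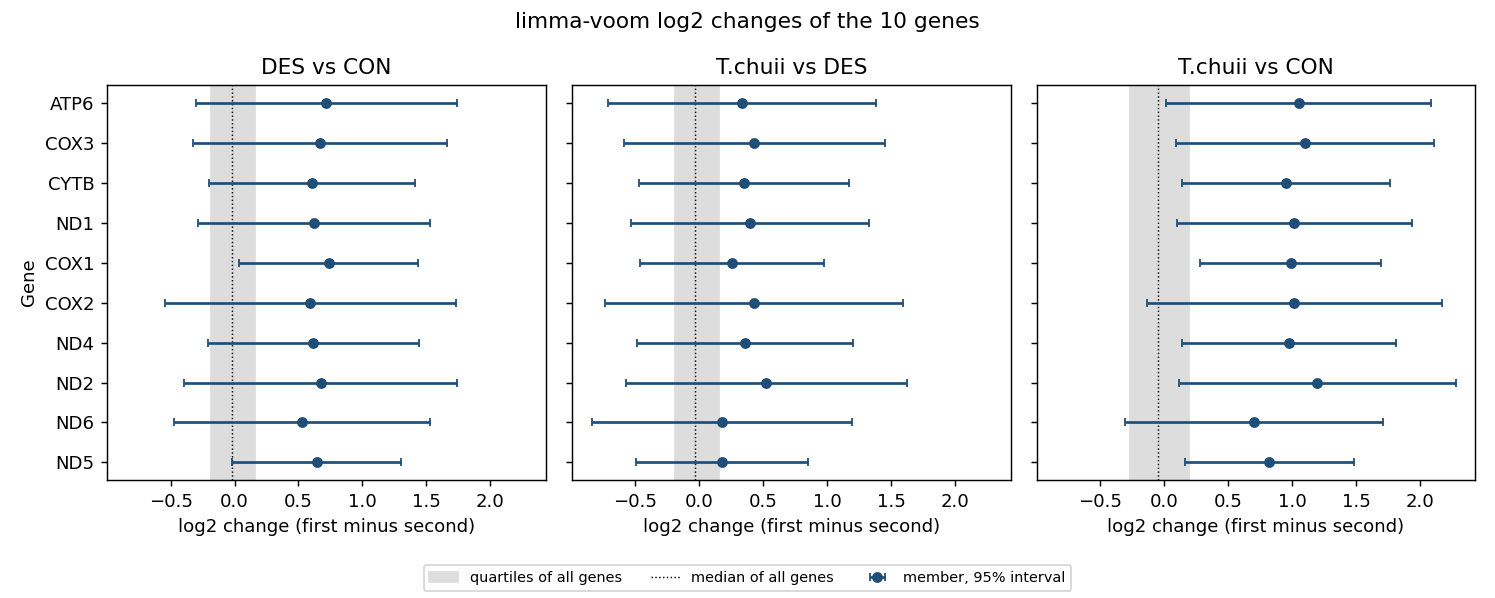
Log2 changes of the 10 genes (points) with 95% intervals in the 3 comparisons, with the quartiles (grey band) and median (dotted line) of all 21287 genes. All points lie right of 0, intervals include 0 for 9 genes in DES vs CON, for 10 in T.chuii vs DES and for 2 (ND6 and COX2) in T.chuii vs CON.

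The genes varied largely together. Their common level carried 94.5% of their log2 variance over the 9 libraries, and each gene's Pearson r with the mean of the other 9 lay between 0.922 (COX1) and 0.996 (ND1), as a description over 9 libraries that share scaling, and over genes of which 9 share a precursor. What remained was in a few genes and libraries. In CON 2 COX1 and ND5 were above the common level, by 0.32 and 0.37 on the log2 scale, while ND2 and COX2 were below it (-0.34 and -0.31). COX1 was also above it in DES 1 (0.35) and below it in CON 1 (-0.36) and DES 3 (-0.29). ND6 was above it in CON 1 (0.32) and DES 3 (0.26), and ND2 in T.chuii 1 (0.30).

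**Figure D4:**
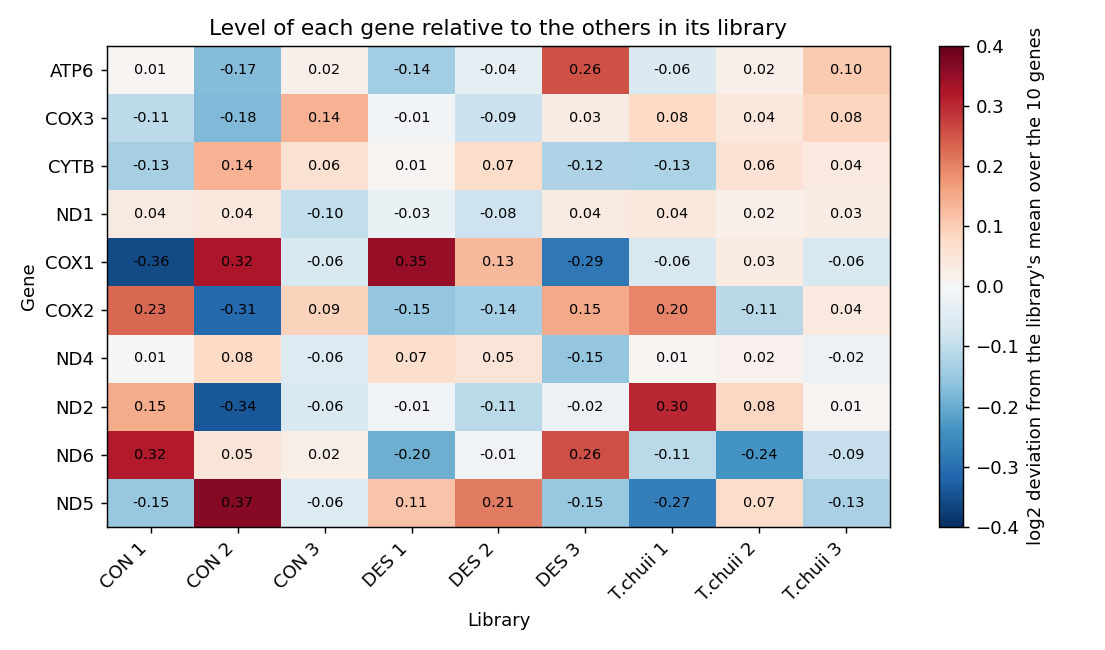
Log2 deviation of each gene from the mean of the 10 genes in each library, after centring each gene over libraries. Red cells are above and blue cells below. Deviations reach 0.37 (ND5 in CON 2) and -0.36 (COX1 in CON 1), and ND1 stays between -0.10 and 0.04.

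Ratios within a library show the same unevenness free of the library's overall level. The ratio of COX1 to COX2, both catalytic subunits of complex IV, was 0.965, 2.25 and 1.30 in FPKM in CON, then 2.05, 1.74 and 1.07 in DES, then 1.21, 1.60 and 1.35 in T.chuii. It varied more within CON and within DES than between group means (1.5 ± 0.664, 1.62 ± 0.502 and 1.39 ± 0.198, SD, n = 3). The ratio was highest in CON 2 and DES 1, both cornea-rich, but not raised in T.chuii 1. The ratio of the neighbours ATP6 and COX3 ran only from 1.02 to 1.30. The ratio of ND6 to ND5, which overlap on opposite strands, ran from 0.902 to 1.55, with the highest values in CON 1 (1.55) and DES 3 (1.49).

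Of the other mitochondrially encoded protein genes, ND3 and ND4L of complex I and ATP8 of ATP synthase had mean levels of 453, 178 and 674 FPKM. The FPKM ratio of ATP8 to ATP6 ran from 0.101 to 0.149. ATP8 is only 204 bases long and shares 43 of them with ATP6, and how reads were divided is not known. FPKM of such short or overlapping genes therefore cannot be read as relative amounts of RNA. ND3 had 193, 36.9 and 143 CPM in CON, then 102, 81.2 and 312 in DES, then 335, 138 and 180.1 in T.chuii, a 9.1-fold range and wider than that of any of the 10. ATP8, whose end lies inside ATP6, had 149, 34.4 and 122 CPM in CON, then 108, 90.2 and 239 in DES, then 264, 158 and 159 in T.chuii. ND4L had 46.7, 17.4 and 51.5 CPM in CON, then 55.6, 39.1 and 66.4 in DES, then 95.6, 72.9 and 61.6 in T.chuii. CON 2 was the lowest library for each of them. Log2 changes of these 3 genes had medians of 0.60 in DES vs CON, 0.53 in T.chuii vs DES and 1.13 in T.chuii vs CON, and none passed the test. Without CON 2 the median was -0.01 in DES vs CON and 0.48 in T.chuii vs CON, and without T.chuii 1 it was 0.26 in T.chuii vs DES. Without the 3 cornea-rich libraries the medians were 0.04, 0.09 and 0.21, with 2 of the 3 genes higher in each comparison. The large ribosomal RNA mt-Rnr2 had 2620, 1431 and 3557 CPM in CON, then 3794, 2529 and 6459 in DES, then 5255, 4218 and 3622 in T.chuii. Its small partner mt-Rnr1 had 211, 65.9 and 263 CPM in CON, then 211, 160 and 391.5 in DES, then 439, 275 and 299.8 in T.chuii. For both rRNAs, all T.chuii libraries were above CON, which held for 5.45% of all genes. Their median changes were 0.69, 0.29 and 0.98, and 0.26, 0.05 and 0.31 without the 3 cornea-rich libraries. Of 21 mitochondrial tRNA genes 16 had enough reads to be tested. Of these, 16, 14 and 16 had higher means in the 3 comparisons, in the same order, against 47.6%, 45% and 44.6% of all genes. Their medians were 0.52, 0.23 and 0.76. Without the 3 cornea-rich libraries 11, 7 and 10 of 15 tRNA genes were higher, with medians of 0.21, -0.02 and 0.22.

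The nucleus encodes the partners of these proteins, and 80 such subunits were measured. They held 1.99%, 1.39% and 1.81% of reads in CON, then 1.90%, 1.62% and 2.17% in DES, then 3.10%, 2.04% and 1.86% in T.chuii, so CON 2 was again lowest and T.chuii 1 again highest. The range was narrower than for the mitochondrial genes, 2.23-fold against 4.70-fold. The ratio of mitochondrial to nuclear-encoded reads was 1.13, 0.554 and 1.21 in CON, then 1.18, 1.24 and 1.44 in DES, then 1.17, 1.39 and 1.57 in T.chuii. CON 2 thus stood apart in this ratio, and T.chuii 1 did not.

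In DES vs CON 73 of the 80 nuclear-encoded subunits had higher means, against 47.6% of all genes, with a median log2 change of 0.22. Of the 80, 0 were past the adjusted threshold and 1 did not overlap, against 2% of all genes in this direction. Without CON 2, 39 of 80 were higher with a median of -0.0051, where the 10 mitochondrial genes had 0.21. In T.chuii vs DES 78 were higher, against 45% of all genes (median 0.38, 0 past the threshold). Without T.chuii 1, 69 were higher with a median of 0.08. Without the 3 cornea-rich libraries 41 were higher in DES vs CON (median 0.0053) and 56 in T.chuii vs DES (0.06). In T.chuii vs CON 78 were higher (median 0.62), against 44.6% of all genes, and 15 did not overlap, against 5.45% in this direction. The limma-voom unadjusted p was under 0.05 for 10, against 3.15% of all genes in this direction, with 0 past the adjusted threshold. Without CON 2 the median was 0.41 (75 higher), without T.chuii 1 it was 0.28 (73 higher), and without the 3 cornea-rich libraries 0.06 (53 higher). By complex, medians in T.chuii vs CON were 0.55 for 36 complex I subunits, 0.41 for the 4 of complex II, which has no mitochondrially encoded part, 0.62 for 9 of complex III, 0.73 for 16 of complex IV and 0.67 for 15 of ATP synthase. Without the 3 cornea-rich libraries these medians were 0.04, 0.26, 0.06, 0.01 and 0.13, and complex IV went from the highest of the 5 to the lowest.

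**Figure D5:**
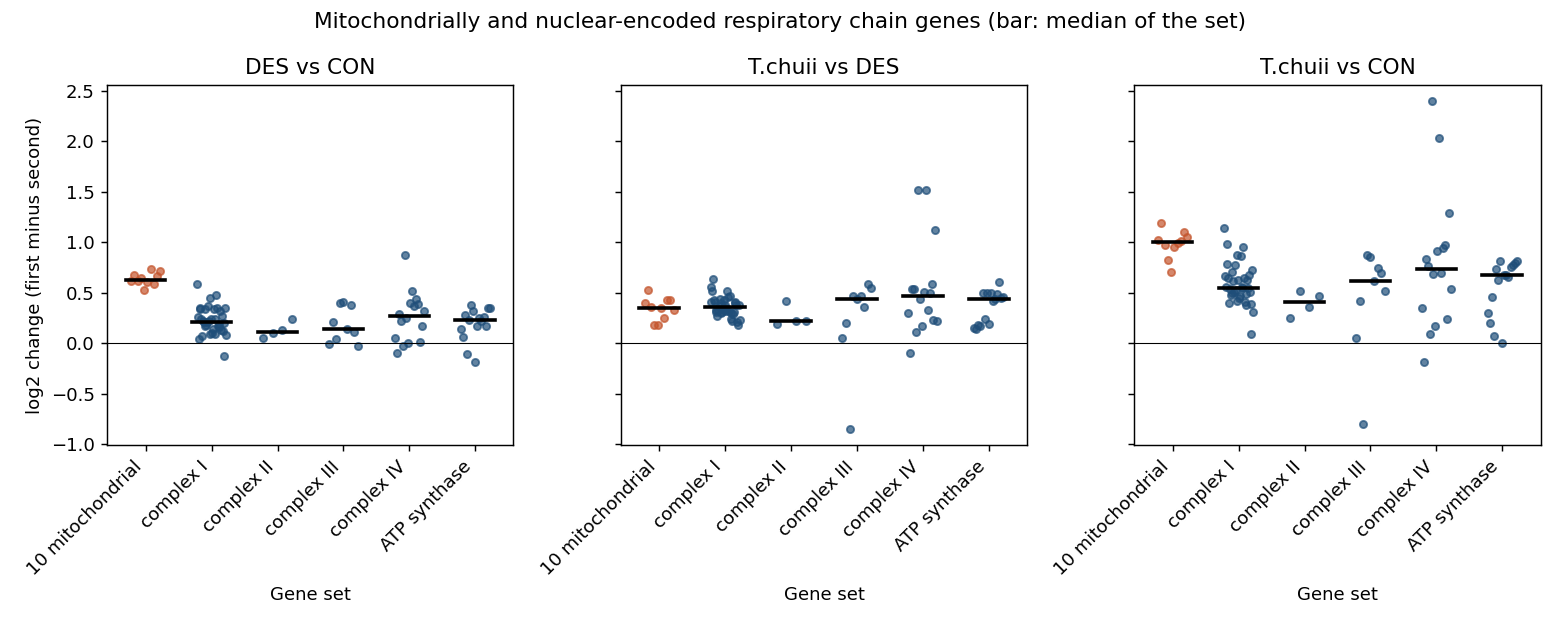
Log2 changes of the 10 mitochondrial genes (orange) and of nuclear-encoded subunits by complex (blue) in the 3 comparisons, 1 point per gene with a bar at the median of each set. The mitochondrial genes lie close together at medians of 0.63, 0.35 and 1.00, while complex IV subunits spread up to 2.40 (Cox6a2) in T.chuii vs CON.

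Single subunits differed in which libraries were high. The Rieske iron-sulfur protein gene Uqcrfs1 of complex III had 210.3, 151 and 197 CPM in CON, then 275, 198 and 264 in DES, then 508, 313 and 242 in T.chuii (log2 change 0.88 ± 0.29 SE in T.chuii vs CON). The ATP synthase beta subunit gene Atp5b had the highest CPM of the nuclear partners, and CON 2 was not low in it: 1911, 2430 and 2034 CPM in CON, then 2411, 2128 and 2105 in DES, then 2929, 2268 and 2155 in T.chuii. The same held for Sdha, the flavoprotein subunit of complex II, with 319, 378 and 322 CPM in CON, then 384, 361 and 314 in DES, then 452, 380.5 and 378 in T.chuii. Cox6a2, the muscle form of a complex IV subunit, had 96.8, 13.9 and 50.5 CPM in CON, then 183, 47.1 and 47.3 in DES, then 599, 174 and 90.6 in T.chuii (2.40 ± 0.84 in T.chuii vs CON). Its high libraries, T.chuii 1, DES 1 and T.chuii 2, were also the 3 with the most fast muscle reads (1.99%, 1.06% and 1.06%). Its counterpart outside muscle, Cox6a1, singled out after its values were seen, had a log2 change of 0.10 ± 0.30 in that comparison. Cyc1, cytochrome c1 of complex III, had a lower mean in T.chuii than in CON, with 1545, 1638 and 687 CPM in CON, then 1440, 841 and 1570 in DES, then 1122, 459 and 648 in T.chuii (-0.80 ± 0.43).

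Genes that make or maintain mitochondrial RNA were counted in the same way. Of 16 genes of mitochondrial transcription and DNA maintenance, 12 had higher means in DES vs CON (median 0.13), 5 in T.chuii vs DES (-0.09) and 8 in T.chuii vs CON (0.01). Ssbp1, which coats single-stranded mitochondrial DNA, had 87.3, 49.5 and 83.7 CPM in CON, then 63.6, 72.7 and 112 in DES, then 89.4, 87.8 and 98.6 in T.chuii, the lowest library again being CON 2. Mterf3, the gene of highest mean CPM in this list, went the other way. It had 157, 79.9 and 78.3 CPM in CON, then 87.2, 80.9 and 212 in DES, then 75.3, 55.4 and 86.9 in T.chuii. Its lowest library was T.chuii 2, and its log2 change in T.chuii vs CON was -0.48 ± 0.40. Of 19 genes of mitochondrial RNA processing and stability, 13, 6 and 8 had higher means in the 3 comparisons, with medians of 0.10, -0.07 and -0.01. Without CON 2, 13 of the 16 and 16 of the 19 genes were higher in DES vs CON, with medians of 0.09 and 0.17. Grsf1, a protein of mitochondrial RNA granules, varied little, with 89.1, 98.5 and 87.8 CPM in CON, then 98.8, 103 and 97.2 in DES, then 100.1, 92.1 and 101 in T.chuii. Of 13 regulators of mitochondrial biogenesis 4, 5 and 4 were higher, with medians of -0.06, -0.08 and -0.15, and without T.chuii 1 the count in T.chuii vs DES was 8 and the median 0.11. The coactivator gene Ppargc1a had 51.0, 43.5 and 51.4 CPM in CON, then 53.0, 62.2 and 44.6 in DES, then 51.8, 60.4 and 63.5 in T.chuii. No gene of these 3 lists passed the adjusted threshold or an unadjusted p of 0.05 in any of the 3 comparisons.

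Among 17 genes of mitochondrial mass and import, 9, 13 and 12 had higher means (medians 0.04, 0.13 and 0.19), and without CON 2 the first of these was 13 (median 0.09). Slc25a4, the ADP/ATP carrier of heart and muscle, had 884, 652 and 833 CPM in CON, then 1285, 833 and 1107 in DES, then 2171, 1392 and 1055 in T.chuii, and its T.chuii libraries were all above CON (log2 change 0.91). Its more widely expressed relative Slc25a5 had 724, 734 and 826 CPM in CON, then 716, 747 and 1000 in DES, then 851, 657 and 826 in T.chuii, with all groups overlapping.

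Among 11013 nuclear genes with a mean of at least 10 CPM, those whose log2 CPM followed the mean of the 10 mitochondrial genes most closely over the 9 libraries were Apoo (Pearson r 0.985), Acyp2 (0.974), Rmdn1 (0.972), Hacd1 (0.971) and Ndufc1 (0.970). Apoo encodes a subunit of the MICOS complex that shapes the inner mitochondrial membrane, and had 68.5, 30.1 and 64.4 CPM in CON, then 57.9, 55.5 and 104.6 in DES, then 117, 76.3 and 79.8 in T.chuii. Ndufc1 is a nuclear-encoded complex I subunit and had 157, 41.2 and 129 CPM in CON, then 109, 84.8 and 240.3 in DES, then 281, 151.5 and 142 in T.chuii. In each of the 5 genes CON 2 was the lowest and T.chuii 1 the highest library. These correlations describe 9 libraries that share scaling and tissue makeup and were picked as the highest of 11013.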

How the data were processed

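RNA sequencing libraries of 9 eyeball samples were analysed, grouped by their titles. Tools named per the submitters' processing notes were StringTie 2.1.3b, HISAT2 2.1.0, Bowtie2 2.3.4.1, Trimmomatic 0.38 and FastQC 0.11.7, with build mm10. The counting step and its strand setting are not given in the sources used here. The deposited tables give a read count and an FPKM per gene, per the file headers. Rows have unequal numbers of cells, so both were read from the right end of the row.

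Genes were kept if at least 3 libraries reached the CPM that 10 reads give at the median library size, with 15 reads in all (21287 genes). All counts were then fitted with limma-voom (limma 3.58.1, R 4.3.3) after scaling by trimmed means of M-values: 9 libraries, 3 group means, 6 residual degrees of freedom, two-sided, Benjamini-Hochberg adjustment over all genes at 0.05. The fit was checked on simulated counts without tissue differences between libraries. That check therefore does not show which changes the fit could detect in these libraries. Prior to limma-trend, 1 was added to FPKM. Pseudogene copies were found with BLAST 2.17.0. Changes are log2 changes ± SE, and levels mean ± SD.

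The members, the 18 gene lists and the tests were chosen with earlier results of these data known. Named genes are the 10 members, ND3, ND4L and ATP8, from each list the 2 of highest CPM and the 2 of smallest p in DES vs CON, and the 5 most alike nuclear genes; not all are printed, and others are said to be chosen later. No 2 libraries agreed within sampling noise (lowest chi-square per degree of freedom 33.9). Title numbers are shared between groups but differ from the numbers in the file headers in 6 of 9 libraries. Deviations from group means of same-numbered libraries correlated at 0.558, 0.342 and 0.170 between DES and T.chuii, so these numbers were taken as pairs on the data alone, and at -0.297, -0.244 and 0.227 between CON and DES and -0.295, -0.371 and 0.293 between CON and T.chuii, which gave no pairing. The differently numbered DES 2 and T.chuii 3 correlated at 0.463, above 2 of the 3 same-numbered values. Alternatives were other scalings, no filter, limma-trend on FPKM and on CPM, a replicate block, fits of 6 libraries, and libraries left out.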

Additional observations from a re-analysis of the deposited data

How the results depend on the processing

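No member passed the adjusted threshold in any of the 550 alternative fits of a single gene, 545 of which kept the direction, among them all with another scaling. These fits share libraries, and some only rescale the same counts or leave out a library of the group not compared. Such fits can hardly turn a direction, so the number that kept it is not a measure of certainty. The smallest adjusted p of a member over all alternatives was 0.998 in DES vs CON, 0.95 in T.chuii vs DES and 0.497 in T.chuii vs CON, the last with the replicate block. With the replicate block the median log2 changes were 0.637, 0.367 and 1.02, with 0 members past the threshold, so the pairing changed no call of a member. The 5 reversals were COX2 in DES vs CON without CON replicate 2 (-0.00319), and ND6 in T.chuii vs DES without DES replicate 2 (-0.0211), without T.chuii replicate 1 (-0.0203) and without CON 2, DES 1 and T.chuii 1 together (-0.194), and in T.chuii vs CON without these 3 together (-0.0072). With 1 library left out in turn COX2 in DES vs CON ranged from -0.00319 to 0.97 and ND6 in T.chuii vs DES from -0.0211 to 0.583. The median in T.chuii vs CON moved to 0.382 without the 3 together. With 1 library left out in turn, medians ranged from 0.207 to 0.891 in DES vs CON, 0.185 to 0.646 in T.chuii vs DES and 0.568 to 1.27 in T.chuii vs CON. Counts past the threshold stayed 0 to 0, and members without overlap numbered 1 to 4, 0 to 9 and 8 to 10. Smaller groups overlap less readily, so these numbers cannot be set beside the shares of all genes given for the full groups. Counts of members without overlap, alternatives added after seeing the data, were 2 in DES vs CON on library totals and 2 on deposited FPKM. The cause of these shifts was not tested. The pooled within-group SD of the members' mean log2 level was 0.564, and the smallest member count was 8439 reads.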
